A study of Mus musculus with 4 samples.

Results

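The 10 genes of the Notch pathway described here were followed through mouse brain vascular cells: the ligands Dll4, Jag1 and Jag2, the receptors Notch1 and Notch4, and the targets Hes1, Hey1, Heyl, Nrarp and Efnb2. They were chosen by name, and each matched 1 row of the 32285 genes in the count tables. The study asked how removing microglia affects brain vessels. For 1 month, C57BL6 mice received either control chow or chow containing 1200 ppm PLX5622, an inhibitor of CSF1R, whose signal keeps microglia alive. After the meninges, cerebellum and olfactory bulbs had been taken off, dissociated brain cells carrying CD31, an endothelial surface protein, were sorted and profiled with a 10x 3' kit, with 2 libraries per diet. The labels give no sex or age, and state that 3 mice were spread over a pair of samples without tying animals to libraries. All p-values below therefore rest on libraries that may share animals. For diet within a class they rest on the spread between libraries, which the test estimates with information shared over all genes. For most genes, the gene's own spread over 2 libraries per diet has little weight in them. Comparisons between classes, and of the diet difference between zones, took library as a block, which removes each library's own level. Their p-values measure the spread that remains, with the classes of a library treated as independent.

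Notch signalling works between touching cells. A ligand of the Delta-like or Jagged family on a cell binds a Notch receptor on its neighbour, the receptor is cut by ADAM and gamma-secretase proteases, and its inner part enters the nucleus and switches on target genes with the DNA-binding protein RBPJ. In blood vessels this pathway is known for arterial identity, for restraining sprouting, and for the differentiation of the mural cells (pericytes and smooth muscle) that wrap the endothelium.

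The 2 members called for diet in at least 1 endothelial zone, Dll4 and Efnb2, are shown with the 250 bases before their RefSeq start (GRCm38.p6, 5′ to 3′ on the gene's strand), because both also followed the arterial to venous axis. The Dll4 window is chr2:119325534-119325783 on the plus strand and the Efnb2 window is chr8:8661243-8661492 on the minus strand. No letters are in capitals, because the motif searched was not found.
Dll4: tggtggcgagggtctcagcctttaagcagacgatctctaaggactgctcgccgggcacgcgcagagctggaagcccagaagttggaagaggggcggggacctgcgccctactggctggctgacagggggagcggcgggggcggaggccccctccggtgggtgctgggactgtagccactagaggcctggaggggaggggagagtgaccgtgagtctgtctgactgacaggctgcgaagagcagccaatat
Efnb2: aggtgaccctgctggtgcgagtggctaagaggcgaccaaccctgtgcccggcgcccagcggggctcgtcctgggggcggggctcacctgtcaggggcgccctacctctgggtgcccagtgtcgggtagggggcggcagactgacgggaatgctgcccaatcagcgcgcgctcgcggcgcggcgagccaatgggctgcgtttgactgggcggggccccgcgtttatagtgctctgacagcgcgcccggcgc
The RefSeq table held 7 of the 10 members (Nrarp, Notch1, Dll4, Jag1, Efnb2, Jag2 and Notch4). The letters TGGGAA, the core of the RBPJ site, were searched on both strands and were in 0 of these 7 windows. Of all 32851 windows of that length in the table, 21.6% held them. The match is a description of letters only. The GENCODE M21 annotation (GRCm38) places Dll4, a protein-coding gene, at 119325784 to 119335962 of chromosome 2, and Efnb2, also protein-coding, at 8617434 to 8661242 of chromosome 8.

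Libraries held 11186648 and 38600208 UMIs (control 1 and 2) and 19044018 and 26949278 UMIs (PLX5622 1 and 2), where a UMI is a molecular tag that counts 1 captured RNA. Cells were kept from 1000 UMIs and 500 genes upward if no more than 10% of their UMIs were mitochondrial, and they numbered 1696, 5509, 3989 and 3670 in the same order, with median depths from 3834 to 5921.5 UMIs. Between 1 and 6 barcodes were shared by any pair of libraries. Clustering without the members gave 12941 endothelial-like cells, among them 624 arterial-like, 10796 capillary-like and 1485 venous-like cells, and 306 pericyte-like and 227 smooth muscle-like cells. All 10 fixed arterial markers passed the naming fold in the arterial-like cluster, and all 10 venous markers in the venous-like cluster. In the capillary-like clusters only 5, 4 and 4 of the 8 capillary markers passed it. Summed, these 8 stood at 7762, 7442, 6995 and 6994 per 1000000 UMIs in capillary-like cells (control 1 and 2, PLX5622 1 and 2). In venous-like cells they stood at 7931, 7698, 6210 and 6471, an overlapping range. Levels are UMIs of a gene per 1000000 UMIs of the class in a library (CPM). This 3' assay does not allow levels to be compared between genes. In sums over cells, fewer expressing cells and less RNA per cell cannot be told apart.

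Among the ligands, Dll4, the Delta-like ligand of arterial and sprouting endothelium, stepped down from arterial-like to venous-like cells. Its arterial-like level was 124 and 136 CPM in the control libraries and 216 and 199 CPM in the PLX5622 libraries. In capillary-like cells it was 107, 85.0, 129 and 131 CPM in the same library order, and in venous-like cells 59.3, 55.5, 56.7 and 48.9 CPM. The venous-like level lay below the capillary-like level in 4 of 4 libraries. Jag1, a Jagged ligand that endothelium presents to mural cells, stood at 175, 150, 211 and 187 CPM in arterial-like cells and at 45.6 to 65.4 CPM in capillary-like cells. Its venous-like range of 54.3 to 82.4 CPM overlapped the capillary-like range. Jag2, the other Jagged ligand, was at 386, 385, 433 and 404 CPM in arterial-like cells, at 144 to 186 CPM in capillary-like cells and at 110 to 139 CPM in venous-like cells. The arterial-like libraries lay above all others for both Jagged genes among the 3 endothelial zones.

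Among the 3 endothelial zones both receptors were highest in arterial-like cells. Notch1, the main endothelial receptor, was at 287 to 330 CPM in arterial-like, 216 to 270 CPM in capillary-like and 199 to 258 CPM in venous-like cells. The capillary-like and venous-like ranges of Notch1 overlapped. Notch4, a receptor largely restricted to endothelium, was at 144, 122, 121 and 123 CPM in arterial-like cells. Its capillary-like range of 64.0 to 74.4 CPM and its venous-like range of 48.1 to 67.7 CPM also overlapped.

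The targets did not share a single pattern. Hey1, a transcriptional repressor and arterial Notch target, was at 179, 172, 241 and 250 CPM in arterial-like cells, 58.9 to 88.6 CPM in capillary-like cells and 8.8 to 15.2 CPM in venous-like cells. Efnb2, which encodes the arterial ligand ephrin-B2, was at 189, 172, 121 and 157 CPM in arterial-like cells, 53.5 to 81.0 CPM in capillary-like cells and 7.4 to 26.0 CPM in venous-like cells. Neither gene's 3 ranges overlapped. Hes1, a repressor used by many signals besides Notch, ran the other way, at 372 to 456 CPM in arterial-like cells and 663 to 837 CPM in capillary-like cells. Its venous-like range of 657 to 920 CPM overlapped the capillary-like range. Nrarp, a feedback inhibitor of Notch, was at 52.6 to 69.1 CPM in arterial-like cells, against 23.9 to 32.4 CPM in capillary-like and 24.6 to 36.3 CPM in venous-like cells. Heyl, a Notch target known from mural cells, had 0 UMIs in arterial-like cells of all 4 libraries, which allows up to 0.645 CPM over the 4649153 UMIs summed there, counting error only.

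**Figure D1:**
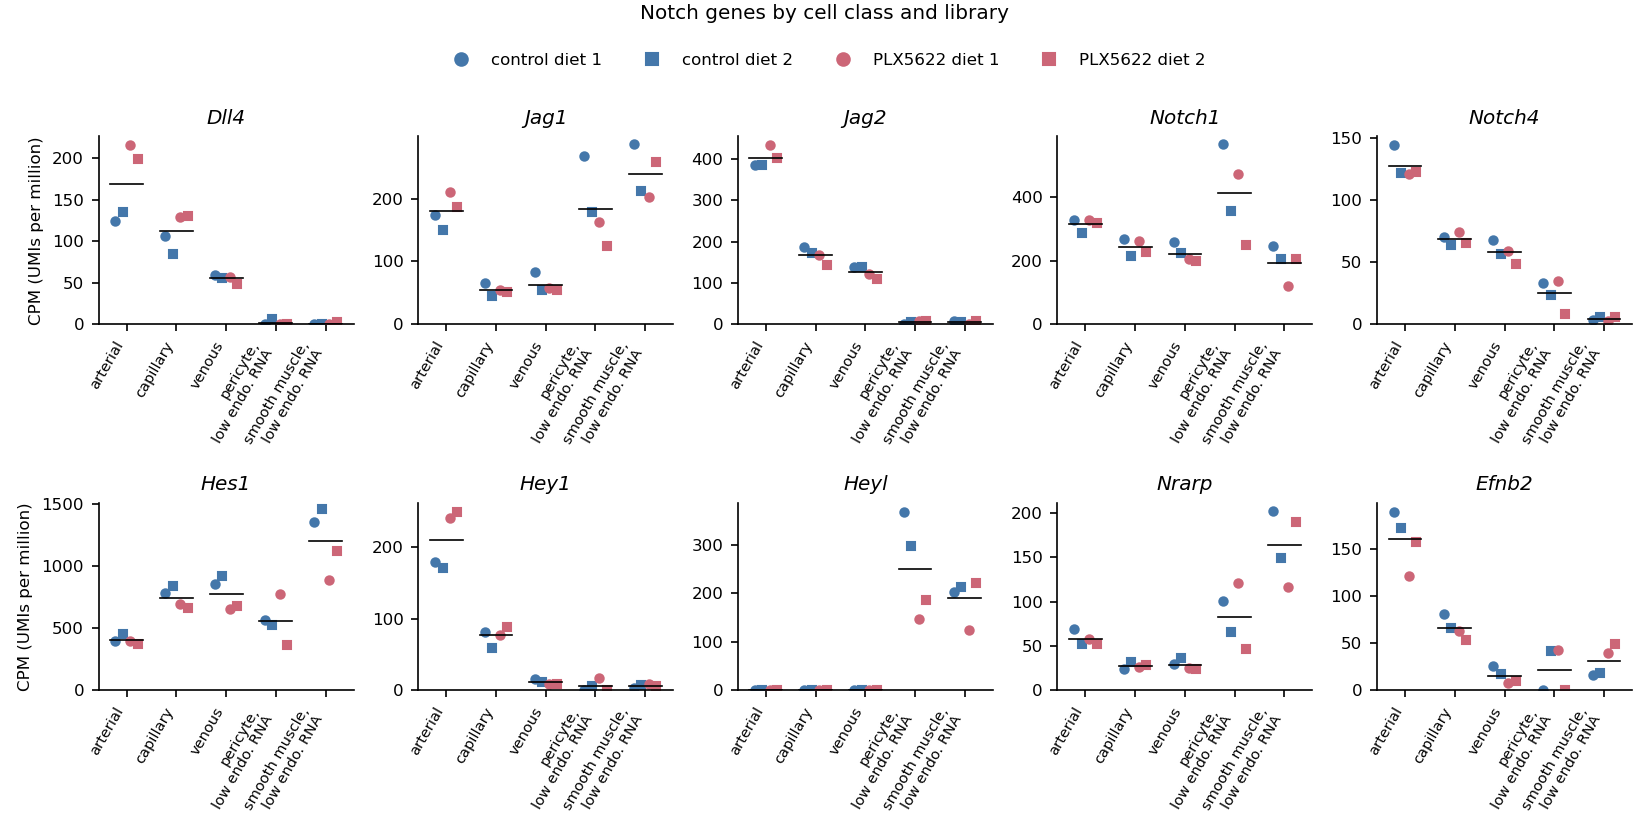
Level of each of the 10 Notch genes (CPM, vertical axis from 0) in 5 cell classes, with 1 point per library (blue control diet, red PLX5622 diet, circles library 1, squares library 2) and a line at the mean of the 4. The mural classes shown are the cells with at most 5 endothelial marker UMIs, where Dll4 is at 0 to 5.9 CPM and Heyl at 125 to 369 CPM.

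Zones were compared with edgeR's quasi-likelihood test with library as a block, with Benjamini-Hochberg adjustment over 10988 genes. Between arterial-like and capillary-like cells 25.6% of all genes were called at an adjusted p under 0.05, so a call by itself is common. Of the 9 members tested, 8 were higher in arterial-like cells and 1, Hes1, was lower. Heyl did not pass the filter on low counts. The log2 differences were 1.74 ± 0.08 for Jag1, 1.47 ± 0.08 for Hey1, 1.32 ± 0.10 for Efnb2 and 1.26 ± 0.06 for Jag2 (each ± SE, over 4 libraries). They were smaller for Nrarp at 0.91 ± 0.12, Notch4 at 0.88 ± 0.08, Dll4 at 0.59 ± 0.13 and Notch1 at 0.37 ± 0.06, and -0.89 ± 0.05 for Hes1. The largest adjusted p among these 9 was 0.00657, for Dll4. The median of the 9 was 0.91, against -0.002 for all genes tested. Within each library every one of the 9 kept its direction, in 4 of 4 libraries.

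Between venous-like and capillary-like cells 20.9% of all genes were called. Of the 9 members 6 were lower in venous-like cells and 0 were higher. Hey1 differed by -2.75 ± 0.11, Efnb2 by -2.16 ± 0.13 and Dll4 by -1.02 ± 0.12 on the log2 scale (SE, edgeR). Jag2 at -0.42 ± 0.06, Notch4 at -0.29 ± 0.07 and Notch1 at -0.16 ± 0.05 were also called lower. Notch1 was not called without PLX5622 library 1 (adjusted p = 0.277 in edgeR) or without PLX5622 library 2 (0.191), and in control library 2 its venous-like level was the higher by 0.06. Jag1 at 0.15 ± 0.07, Hes1 at 0.02 ± 0.04 and Nrarp at 0.02 ± 0.10 did not pass the test. The median of the 9 was -0.29, against 0.0004 for all genes tested.

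**Figure D2:**
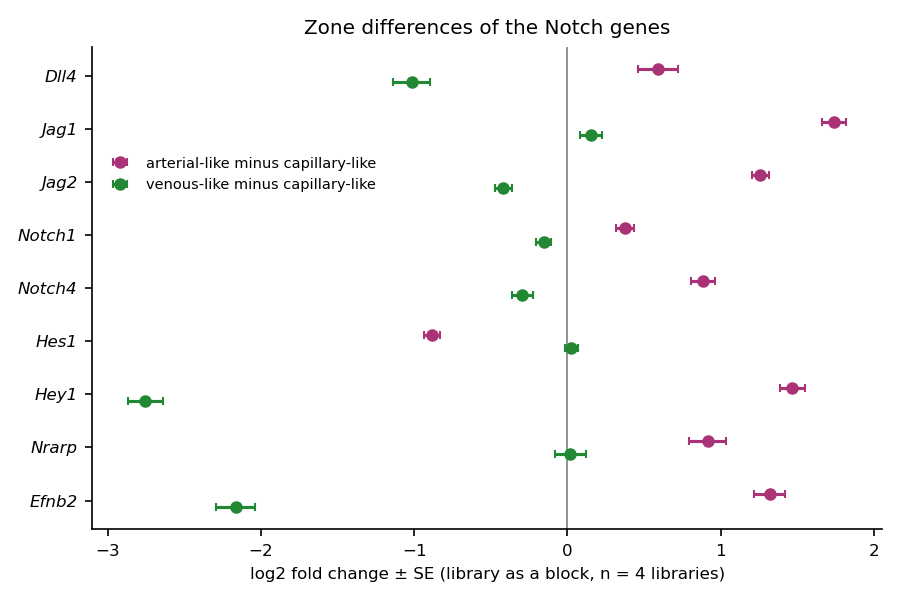
Log2 fold change of 9 Notch genes in arterial-like (purple) and venous-like (green) cells against capillary-like cells, with standard errors over 4 libraries. Hey1 and Efnb2 span the widest distance between the zones, and Hes1 alone lies below 0 in arterial-like cells.

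The capillary-like class was made of 3 clusters, and Efnb2 and Hey1 had higher levels in one of them than in the other two in every library. Efnb2 was at 126, 105, 114 and 103 CPM in the cluster led by Slc26a10, Tcim and Rad54b (cluster 1) and at 26.1 to 35.8 CPM in the cluster led by Adm and Cpe (cluster 0). The top genes of cluster 1 held a fixed capillary marker, Slc26a10, and a fixed arterial marker, Sema3g. They also held Efnb2 itself, which was left out of the clustering, and Gm9946, Alpl, Aif1l, Unc5b and Cdk19. Hey1 was at 125, 87.1, 151 and 165 CPM in cluster 1 and at 30.9 to 43.9 CPM in cluster 0. The third cluster, of lower depth and led by Cxcl12 and Grrp1 (cluster 2), had Efnb2 at 35.2 to 56.0 CPM and Hey1 at 40.6 to 68.7 CPM, ranges that overlapped those of cluster 0, although both genes were higher in cluster 2 than in cluster 0 in 4 of 4 libraries. Jag2, Notch1, Notch4 and Dll4 were also highest in cluster 1 in every library. Against cluster 0, Jag2 was higher there by 0.64 to 0.78 log2 units, Notch1 by 0.20 to 0.38 and Notch4 by 0.13 to 0.24. Dll4 was higher by only 0.05 to 0.09 log2 units. Hes1 and Nrarp were lower in cluster 1 than in cluster 0 in 4 of 4 libraries, by 0.51 to 0.66 and 0.44 to 0.73 log2 units. These differences are given without a test.

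Heyl was the member with the largest fold difference between mural and endothelial cells in these fits. Heyl, near absent from endothelium at 0.2 to 0.7 CPM in endothelial-like cells, was at 206, 178, 113 and 228 CPM in smooth muscle-like cells and at 82.5, 111, 82.4 and 80.4 CPM in pericyte-like cells. The log2 difference from endothelial-like cells was 8.55 ± 0.20 for smooth muscle-like and 7.43 ± 0.25 for pericyte-like cells (SE, edgeR, adjusted p = 1.87e-25 and 6.13e-21). That order was not kept in cells with at most 5 endothelial marker UMIs. There Heyl stood at 156824%, 51748%, 54565% and 27607% of the endothelial-like level in pericyte-like cells. Smooth muscle-like cells gave 86224%, 37201%, 46723% and 32957%, higher than pericyte-like cells in PLX5622 library 2 only. After each cell was thinned to 2000 UMIs, 26.7% to 38.9% of smooth muscle-like cells per library had a Heyl UMI, against 0.0% to 0.2% of capillary-like cells. Cells under 2000 UMIs were left out, 1 of 227 smooth muscle-like and 582 of 10796 capillary-like cells. Without thinning these shares were 45.9% to 75.0% and 0.1% to 0.5%.

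Smooth muscle-like cells differed from endothelial-like cells in 56.0% of all 8989 genes tested. Of the 10 members 4 were higher (Heyl, Nrarp, Jag1 and Hes1) and 4 were lower (Dll4, Hey1, Notch4 and Jag2). Nrarp stood at 203, 139, 120 and 177 CPM, a log2 difference of 2.47 ± 0.15, and Jag1 at 294, 222, 220 and 252 CPM, a difference of 2.06 ± 0.10. Hes1, at 939 to 1339 CPM, was 0.74 ± 0.09 log2 units higher. Dll4 was at 2.9 to 14.0 CPM and differed by -3.31 ± 0.24. Efnb2 at -0.76 ± 0.31 and Notch1 at -0.16 ± 0.12 were not called. Efnb2 was called lower without a filter on low counts (adjusted p = 8.81e-06 in edgeR), when cells with over 5 endothelial marker UMIs were left out (-0.89, 0.0048) and when control library 1 (0.0459) or PLX5622 library 2 (0.00574) was.

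Pericyte-like cells were called different from endothelial-like cells in 24.3% of genes, with 4 members higher (Heyl, Nrarp, Jag1 and Notch1) and 3 lower (Dll4, Hey1 and Hes1). The whole pericyte-like class carried the 9 endothelial markers at a median of 65.7% of the endothelial-like level, with a range of 61.6% to 74.7%. In smooth muscle-like cells the same median was 5.33%. Among the 118 pericyte-like cells with at most 5 endothelial marker UMIs (9, 38, 42 and 29 per library) the median was 0.519%. In these cells Dll4 had 1 UMI in all 4 libraries together, and Jag2 had 0, 1, 1 and 1 UMI. Notch1 was at 570, 357, 474 and 248 CPM and Jag1 at 268, 179, 164 and 124 CPM there. Against endothelial-like cells, the test on these cells called Heyl, Jag1, Nrarp and Notch1 higher and the other 6 lower. Of all 8456 genes in that fit, 1606 were called higher and 1874 lower, so a call there was common. In the whole class Jag2, Notch4 and Efnb2 were not called, but without a filter on low counts all 3 were called lower (adjusted p = 0.000326, 0.0193 and 0.0114 in edgeR). Without control library 2, Jag2 (0.0135) and Efnb2 (0.0423) were called lower. Notch1 in the whole class was not called without control library 1 (adjusted p = 0.094 in edgeR) or PLX5622 library 1 (0.0661), and Hes1 not without control library 1 (0.127), control library 2 (0.2) or PLX5622 library 2 (0.0562). Jag1 was not called without control library 2 (0.0537) and Nrarp not without PLX5622 library 1 (0.209). Summed fibroblast markers ranged from 469 to 3342 CPM in the low endothelial cells, and their part in these values was not tested.

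**Figure D3:**
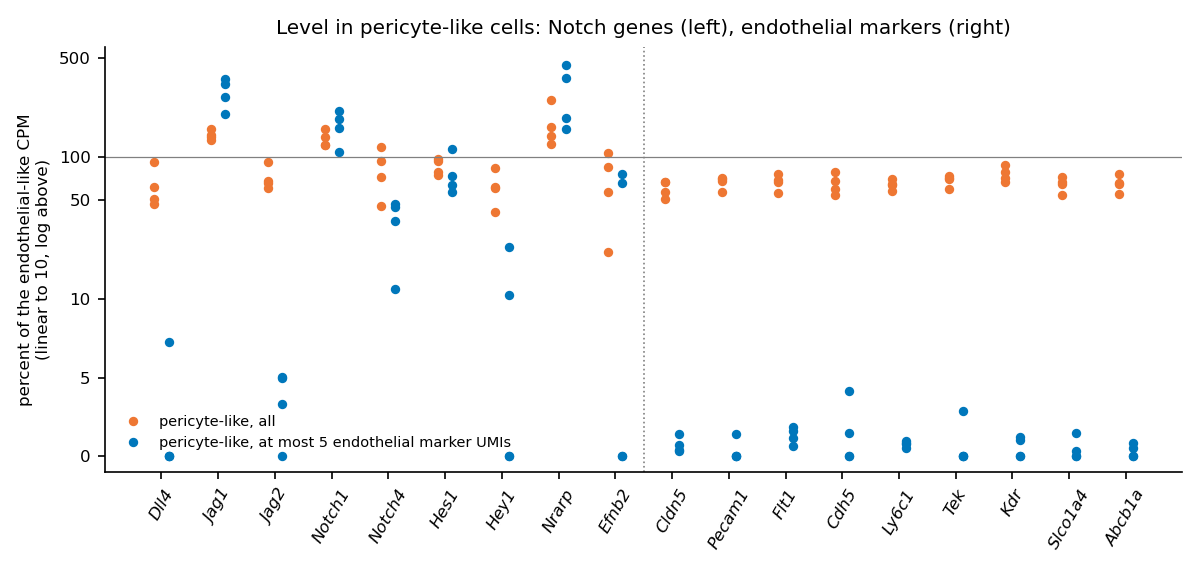
Level of 9 Notch genes and 9 endothelial markers in pericyte-like cells as a percent of the endothelial-like level, 1 point per library (vertical axis linear to 10 and logarithmic above), for the whole class (orange) and for cells with at most 5 endothelial marker UMIs (blue). The markers lie near 0 in the second set, Dll4 is at 0 there in all libraries but control 2, and Jag1, Notch1 and Nrarp lie above 100 in every library.

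With the PLX5622 diet, Dll4 was the only ligand called, and it was higher in the endothelium as a whole. Its endothelial-like level was 97.7 and 82.1 CPM in the control libraries and 122 and 122 CPM in the PLX5622 libraries. Both PLX5622 libraries lay above both control libraries, as they did for 14.9% of genes with at least 20 UMIs. The log2 difference was 0.50 ± 0.09 (SE, n = 2 per diet, adjusted p = 0.0116 in edgeR over 12757 genes, of which 1.20% were called). It was 0.49 without PLX5622 library 1, where the adjusted p was 0.0504. Dll4 was 1 of 10 members called in these cells, and the median of the 10 was 0.008, against 0.003 for all genes.

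By zone, Dll4 was higher with PLX5622 in capillary-like cells by 0.50 ± 0.10 (adjusted p = 0.0118 in edgeR, 1 of 9 members tested and 1.18% of all genes called). Its capillary-like level was 107 and 85.0 CPM on the control diet and 129 and 131 CPM on PLX5622. The adjusted p was 0.0597 without PLX5622 library 1 and 0.119 without PLX5622 library 2. Cluster 1 held 40.4% and 38.7% of capillary-like cells in the control libraries and 26.1% and 30.5% in the PLX5622 libraries. Within cluster 1 alone the Dll4 difference was 0.51 (adjusted p = 0.0282 in edgeR), and within cluster 0 alone it was 0.53 (0.00894).

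In arterial-like cells Dll4 was higher by 0.64 ± 0.17 (adjusted p = 0.0337 in edgeR, 1 of 9 members tested and 0.404% of all genes called). The control libraries stood at 124 and 136 CPM and the PLX5622 libraries at 216 and 199 CPM, with no overlap, and PLX5622 above control as for 17.2% of genes. That call was lost in DESeq2 (adjusted p = 0.99997), without a filter on low counts (0.0978), and without control library 1 (0.0509), PLX5622 library 1 (0.704) or PLX5622 library 2 (0.477). Between 71 and 276 arterial-like cells per library stood behind these values. The 8 smooth muscle markers summed to 85.4 and 161 CPM in control and 194 and 257 CPM in PLX5622 arterial-like cells, with Cnn1 at 0, and the 9 pericyte markers to 124 and 233 CPM and 311 and 434 CPM. Dll4 was at 0 to 1.9 CPM in smooth muscle-like and at 0 to 5.9 CPM in pericyte-like cells with little endothelial RNA.

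Venous-like cells showed no such Dll4 difference: 59.3 and 55.5 CPM on the control diet, 56.7 and 48.9 CPM on PLX5622, -0.10 ± 0.15 on the log2 scale (adjusted p = 0.909 in edgeR). The diet difference in venous-like cells minus that in capillary-like cells was -0.63 ± 0.13 (adjusted p = 0.000896 in an interaction fit over all 3 zones with edgeR, in which 0.701% of genes were called). It was -0.49 without control library 2 (adjusted p = 0.566) and -0.48 without PLX5622 library 2 (0.416). Dll4 was the 1 member called of 9 tested in this term, and 5 had an unadjusted p under 0.05. All 9 values were negative, with a median of -0.28 against 0.008 for all genes. Hey1 at -0.83 ± 0.26 (adjusted p = 0.114 in edgeR) was larger in size than Dll4 and was not called. The venous-like class itself differed between the diets. It held 12.8% and 13.4% of endothelial-like cells in the control libraries and 8.3% and 11.5% in the PLX5622 libraries. Its 10 venous markers summed to 1310 and 1440 CPM on the control diet and 2498 and 2401 CPM on PLX5622. The part of these differences in this term was not tested. For arterial-like minus capillary-like cells, Dll4 differed by 0.07 ± 0.13 (adjusted p = 0.996). There edgeR called 0 of 9 members and 0.491% of genes, with 1 member, Jag2, at an unadjusted p under 0.05. In barcodes with under 100 UMIs, which hold mainly free RNA, Dll4 was at 97.5, 95.4, 130 and 130 CPM in the same library order.

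**Figure D4:**
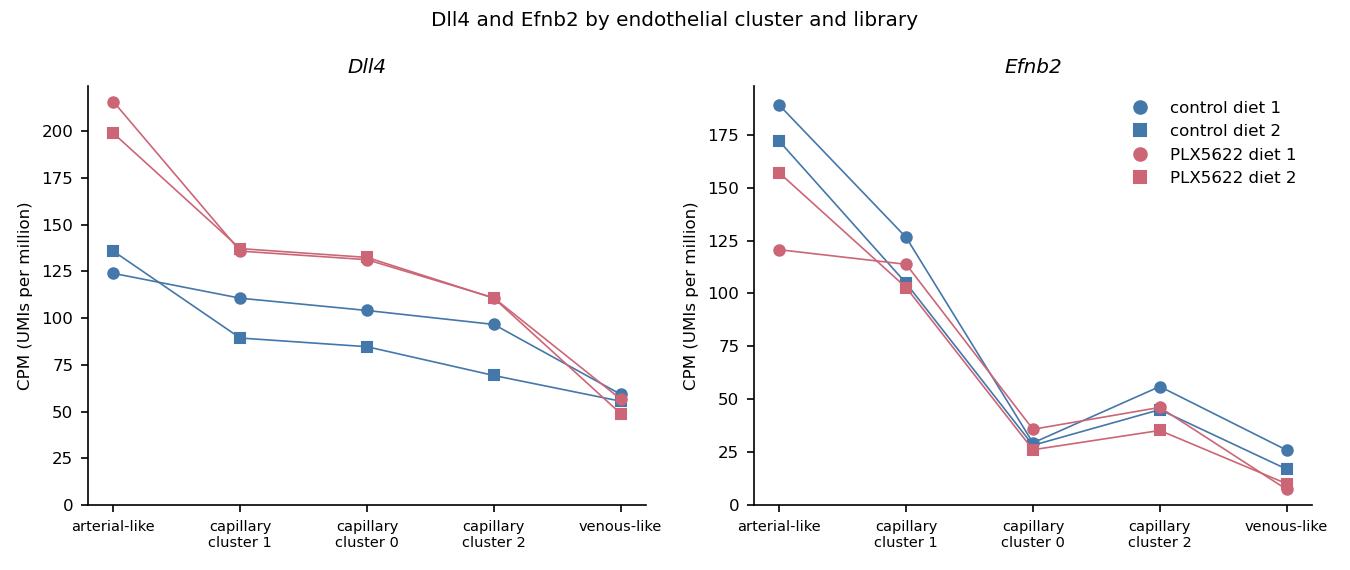
Level of Dll4 and Efnb2 (CPM) in arterial-like cells, the 3 capillary-like clusters and venous-like cells, 1 line per library. For Dll4 both PLX5622 libraries (red) lie above both control libraries (blue) in every class but the venous-like cells, where all 4 lie between 48.9 and 59.3 CPM.

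Efnb2 was the other member called for diet, and it was lower with PLX5622 in venous-like cells. Control libraries stood at 26.0 and 17.0 CPM (46 and 116 UMIs) and PLX5622 libraries at 7.4 and 10.1 CPM (16 and 36 UMIs), without overlap, and PLX5622 below control as for 22.4% of genes. The log2 difference was -1.12 ± 0.27 (adjusted p = 0.0036 in edgeR, 1 of 9 members tested and 2.15% of all genes called). It was not called in DESeq2 (adjusted p = 0.347), without control library 1 (0.101) or without PLX5622 library 1 (0.164). Efnb2 in barcodes with under 100 UMIs was at 66.3, 61.0, 52.0 and 58.3 CPM, above every venous-like value. In venous-like cells the 10 venous markers summed to between 1310 and 1440 CPM on the control diet and between 2401 and 2498 CPM on PLX5622, and their part in the result was not tested. Compared with the diet difference in capillary-like cells, that in venous-like cells was lower by -0.79 ± 0.24 (adjusted p = 0.112 in edgeR).

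In capillary-like cells Efnb2 was at 81.0 and 66.0 CPM on the control diet and 62.6 and 53.5 CPM on PLX5622, a log2 difference of -0.28 ± 0.11 that was not called (adjusted p = 0.31 in edgeR). Without control library 2 it was -0.39 and called (0.0204). Within cluster 1 alone the difference was -0.04, and within cluster 0 alone it was 0.11. In endothelial-like cells Efnb2 was at 76.5 and 63.2 CPM against 57.0 and 52.9 CPM (-0.29 ± 0.10, adjusted p = 0.23), and was called without control library 2 (0.0313). Arterial-like cells gave 189 and 172 CPM against 121 and 157 CPM, -0.32 ± 0.17 (adjusted p = 0.837 in edgeR).

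Of the other targets, Hey1 came closest to the threshold in several classes without passing it. Its endothelial-like level was 73.3 and 56.2 CPM on the control diet and 74.0 and 85.5 CPM on PLX5622, a log2 difference of 0.37 ± 0.11 (adjusted p = 0.137 in edgeR). It was called without a filter on low counts (0.0221) and without control library 1 (0.00264). Arterial-like cells gave 179 and 172 CPM against 241 and 250 CPM, 0.50 ± 0.16 (adjusted p = 0.173). In capillary-like cells the difference was 0.32 ± 0.12 (adjusted p = 0.278), and it was called without control library 1 (0.000217). Within capillary cluster 1 alone Hey1 was at 125 and 87.1 CPM against 151 and 165 CPM, 0.66 ± 0.13 (adjusted p = 0.00905 in edgeR, an alternative added after the data were seen).

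Hes1 in venous-like cells was at 856 and 920 CPM on the control diet and 657 and 675 CPM on PLX5622, without overlap, and PLX5622 below control as for 22.4% of genes. The log2 difference of -0.39 ± 0.12 missed the threshold (adjusted p = 0.0584 in edgeR), and was called without control library 1 (-0.46, adjusted p = 0.000445). In endothelial-like cells Hes1 was at 774 and 827 CPM against 676 and 645 CPM (-0.23 ± 0.12, adjusted p = 0.538). Nrarp in venous-like cells was at 29.4 and 36.3 CPM against 24.9 and 24.6 CPM (-0.44 ± 0.18, adjusted p = 0.295).

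The remaining ligands and receptors gave no diet call in any endothelial class. Jag2 was at 188, 181, 171 and 155 CPM, Jag1 at 75.2, 54.7, 61.4 and 61.1 CPM, Notch1 at 271, 223, 256 and 229 CPM and Notch4 at 74.9, 66.7, 74.1 and 66.5 CPM in endothelial-like cells. Of these 4 only Jag2 had groups that did not overlap in endothelial-like cells, which was also so for 40.3% of the 13723 genes with at least 20 UMIs. By zone, Jag1 (175 and 150 against 211 and 187 CPM) and Jag2 (386 and 385 against 433 and 404 CPM) were without overlap in arterial-like cells, with PLX5622 above control, as were 17.2% of genes. Jag2 (186 and 174 against 167 and 144 CPM) was without overlap in capillary-like cells, with PLX5622 below control, as were 23.9% of genes. In venous-like cells PLX5622 lay below control without overlap for Notch1 (258 and 225 against 206 and 199 CPM) and Jag2 (138 and 139 against 122 and 110 CPM). So it did there for 6 of 10 members in all, and for 22.4% of genes. The median venous-like difference of the 9 members tested was -0.24, against 0.003 for all genes, and 4 of the 9 had an unadjusted p under 0.05. The endothelial-like log2 differences of Jag1, Jag2, Notch1 and Notch4 lay between -0.13 and 0.04, with standard errors of 0.09 to 0.11.

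**Figure D5:**
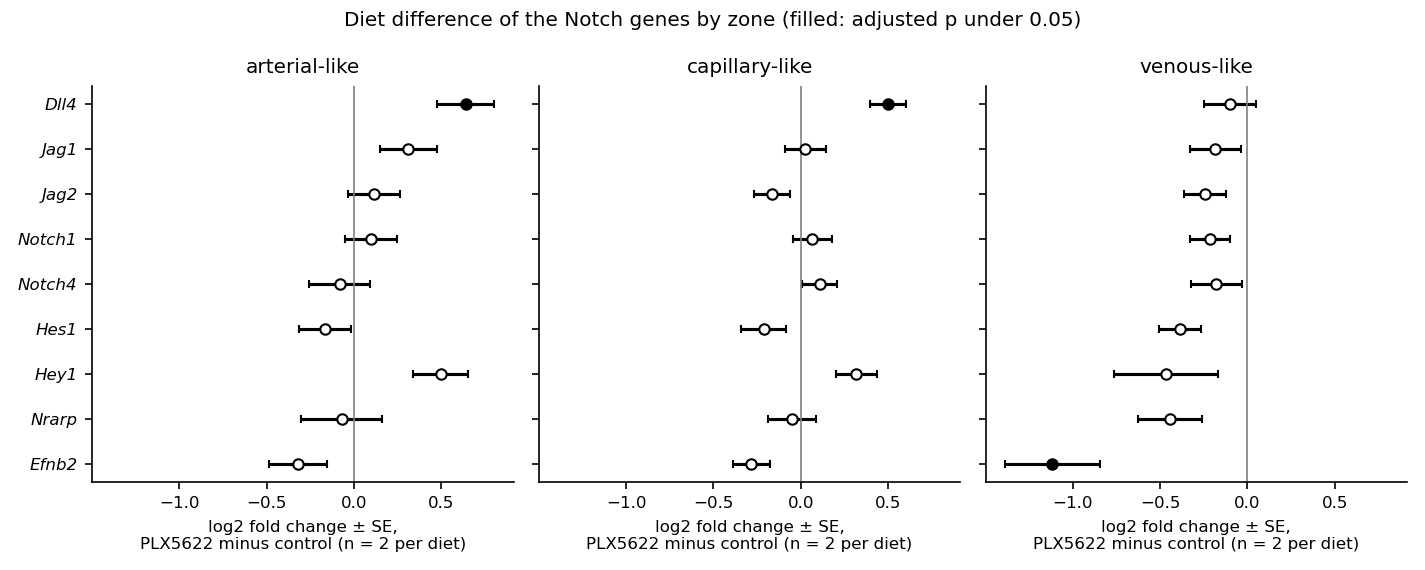
Log2 fold change of 9 Notch genes with PLX5622 in arterial-like, capillary-like and venous-like cells, with standard errors (2 libraries per diet); filled points have an adjusted p under 0.05 in edgeR. Dll4 is filled in arterial-like and capillary-like cells and Efnb2 in venous-like cells.

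In mural cells no member was called for diet. EdgeR called 0 of 10 members in pericyte-like cells (0.00% of 6804 genes), with 0 members at an unadjusted p under 0.05, and DESeq2 called 0. Heyl there was at 82.5 and 111 CPM against 82.4 and 80.4 CPM, -0.30 ± 0.26. As given above, this class carried much endothelial RNA. In its 118 cells with at most 5 endothelial marker UMIs, edgeR could test only 5 members. It called 0 of these 5 and 0 of 2431 genes, with 1 member and 58 genes at an unadjusted p under 0.05. Jag1 was at 268 and 179 CPM against 164 and 124 CPM in those cells. In smooth muscle-like cells edgeR called 0 of 7 members tested (0.00% of 6389 genes), with Jag2 and Efnb2 at an unadjusted p under 0.05, and DESeq2 called 0. Jag2 was at 23.5 and 78.4 CPM against 26.4 and 15.8 CPM there. In the smooth muscle-like cells with at most 5 endothelial marker UMIs it was at 0 to 7.8 CPM. Efnb2 was at 14.7 and 30.1 CPM against 38.3 and 49.0 CPM, with PLX5622 above control and no overlap, as for 13.9% of genes with at least 20 UMIs. Its log2 difference was 0.86 ± 0.40 (adjusted p = 0.997 in edgeR). In the cells with little endothelial RNA it was at 16.3 and 18.6 CPM against 39.9 and 48.8 CPM. Without control library 1 Jag2 was called lower (-1.90, adjusted p = 0.000106 in edgeR), and the endothelial markers summed to 2816 CPM in the remaining control library, against 597 to 1409 CPM in the other 3. Heyl in smooth muscle-like cells differed by -0.09 ± 0.27 and Nrarp by -0.10 ± 0.23.

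The other genes of the pathway, a list of 56 that spans receptors, ligand partners, proteases, glycosyltransferases, ubiquitin ligases and nuclear cofactors, gave no diet call in the fits reported here. EdgeR called 0 of 42 tested in endothelial-like cells (5 at an unadjusted p under 0.05), 0 of 32 in arterial-like (0), 0 of 41 in capillary-like (4), 0 of 37 in venous-like (0), 0 of 28 in pericyte-like (0) and 0 of 24 in smooth muscle-like cells (0). Of all genes it called 1.20%, 0.404%, 1.18%, 2.15%, 0.00% and 0.00% in the same order, so 0 calls in so short a list says little. An unadjusted p under 0.05 was found for 1348 of 12757 genes in endothelial-like and 1260 of 12245 in capillary-like cells. DESeq2 also called 0 in each. In other settings of edgeR, Neurl1b was called higher in capillary-like cells without a filter on low counts (adjusted p = 0.043) and without control library 1 (0.0299), and Egfl7 lower in smooth muscle-like cells without control library 1 (1.1e-07). The smallest p in endothelial-like cells belonged to Neurl1b, a ubiquitin ligase for ligands, at 2.5 and 1.9 CPM against 3.1 and 4.2 CPM (adjusted p = 0.175 in edgeR). Poglut1, which puts glucose on Notch receptors, followed at 23.9 and 23.4 CPM against 27.4 and 28.4 CPM (0.293). Both diet by zone terms called 0 of 39, beside 0.491% (arterial-like) and 0.701% (venous-like) of all genes, with 2 and 0 at an unadjusted p under 0.05.

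By zone, 7 of these 39 genes were higher and 6 lower in arterial-like than in capillary-like cells, 13 of 39 beside the 25.6% of all genes. Numb, a Notch inhibitor, was higher by 0.34 ± 0.10 and Ncstn, a gamma-secretase subunit, by 0.35 ± 0.11. Adam10, a protease that cuts Notch receptors, differed by -0.22 ± 0.06, Egfl7, a secreted endothelial protein, by -0.17 ± 0.04, Aph1a, another gamma-secretase subunit, by -0.36 ± 0.08 and Mfng, a fringe glycosyltransferase, by -0.41 ± 0.10. In venous-like cells 5 were higher and 1, Egfl7, was lower, 6 of 39 beside the 20.9% of all genes, a share near or under the background. Adam10 was higher there by 0.19 ± 0.05. Ephb4, the venous receptor of ephrin-B2, was at 52.5, 47.4, 61.8 and 50.6 CPM there and at 38.1 to 42.9 CPM in capillary-like cells, a difference of 0.35 ± 0.08 (adjusted p = 0.000919 in edgeR).

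In smooth muscle-like cells 13 of 38 tested were higher than in endothelial-like cells and 11 lower, beside 56.0% of all genes called in either direction. In pericyte-like cells 8 of the 38 were higher and 5 lower, beside 24.3% of all genes. Notch3, the mural receptor, was at 836, 702, 705 and 870 CPM in smooth muscle-like and 272, 306, 401 and 318 CPM in pericyte-like cells, against 0.8 to 1.5 CPM in endothelial-like cells. In the cells with at most 5 endothelial marker UMIs the mural ranges overlapped. Notch3 was there at 853, 783, 732 and 917 CPM in smooth muscle-like and 1106, 583, 810 and 963 CPM in pericyte-like cells. The Hey2 and Dtx4 values are of the whole classes. Hey2, a repressor related to Hey1, was at 141 to 196 CPM in smooth muscle-like and 41.2 to 56.8 CPM in pericyte-like cells, against 0.9 to 1.6 CPM in endothelial-like cells. Dtx4, a Deltex family gene, was at 20.6, 25.7, 36.9 and 33.5 CPM in pericyte-like cells and at 0 to 3.5 CPM in smooth muscle-like cells. Mfng and Lfng, both fringe genes, were lower in smooth muscle-like cells by log2 values of -3.17 ± 0.25 and -4.56 ± 0.57.

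Genes most like each member were ranked by Pearson's r of log2(CPM + 1) over 20 sums (4 libraries by 5 classes), among 6608 genes with a mean of at least 20 CPM. The sums share libraries and depth, so r is a description. For Dll4 the closest were Sox18 (0.97), Irf7 (0.97) and Myl12b (0.96), and for Heyl they were Tbx18, Rgma and Dock10 (each 0.99 or above). Hey1 was closest to Alox12 (0.95), Sema3g (0.95) and Alpl (0.91), and Efnb2 to Stmn2 (0.89), Sema3g (0.89) and Tgfb2 (0.86). Jag1 was closest to Pdgfa (0.95), Timp2 (0.94) and Ehd2 (0.94), Jag2 to Ltbp4, St8sia6 and Slc9a3r2 (each 0.98), and Notch4 to Eogt (0.98), Kctd12b (0.97) and Jag2 (0.97). For Notch1 the values were 0.94 for Itpripl2, 0.85 for Scd2 and 0.82 for Ppp1cc. For Hes1 they were 0.91 for Cpe, 0.91 for Gm26532 and 0.89 for Inf2, and for Nrarp 0.96 for Marveld1, 0.95 for Cystm1 and 0.95 for Ltbp1.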

How the data were processed

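UMI counts per gene and barcode were deposited per library, and the file headers name Cell Ranger 4, while the submitters' processing notes list Cell Ranger 6.0.1, Seurat 4.0, mm10 and mm39 without a role, and no source used here says which build the counts use. Cells were filtered as stated in the report and clustered with scanpy 1.11.5 and igraph 0.11.9, with the 10 members and 56 other Notch genes left out, and endothelial-like cells again without 200 further genes (lists known to move with the diet, and mitochondrial genes). Names came from fixed markers. The number of markers and the folds they had to pass (4-fold for classes with at least 3 markers, 1.2-fold for zones, with at least 5 of 10 for arterial-like and venous-like) were set after the clusters were seen. No doublet caller was run; 705 cells in unnamed clusters of low depth or with markers of another class were not used. Counts were summed per library and class and tested in edgeR 4.0.16 (TMM, filterByExpr, quasi-likelihood, Benjamini-Hochberg over all genes, threshold 0.05). A standard error is the log2 fold change divided by the square root of F. Alternatives used DESeq2 1.42.0 and limma 3.58.1. Scripts were tested on simulated data. Members and lists were chosen with earlier results of these data known. All members are named; of the other Notch genes, up to 5 called per direction by smallest p, or up to 4 where none was called. Some genes that this rule would name are not reported here. Of the gene IDs in the files, 32158 of 32285 are in GENCODE M21.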

Additional observations from a re-analysis of the deposited data

Results flagged for a closer look

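The diet difference of Dll4 was not the same in venous-like and capillary-like cells. A test of the difference itself gave -0.63 ± 0.13 on the log2 scale (SE, edgeR, adjusted p = 0.000896), with Dll4 higher with PLX5622 in capillary-like cells and not in venous-like cells. In the same term all 9 members tested were negative, with a median of -0.28 against 0.008 for all genes and 5 of 9 at an unadjusted p under 0.05. Hey1 at -0.83 and Efnb2 at -0.79 were larger in size than Dll4 and were not called (adjusted p = 0.114 and 0.112 in edgeR). The share of venous-like cells and the level of their venous markers also differed between the diets, and their part in this term was not tested. The Dll4 value kept its sign without each library in turn, and was not called without control library 2 (adjusted p = 0.566) or PLX5622 library 2 (0.416).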

How the results depend on the processing

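Across 914 alternative fits of 110 member values, 816 kept their direction and side of the threshold, 23 lost and 20 gained a call, and 55 changed sign. The cause was not tested unless the alternative itself used fewer genes or libraries. All 55 sign changes were of values not called in the fits reported above, 30 of 75 such values. The number of members called moved to 2 (endothelial-like) and 0 (arterial-like) without a filter on low counts, to 0 with DESeq2 in arterial-like and venous-like cells, and to 2 in capillary cluster 1 alone. Genes called moved from 153 to 349 (no filter) and 96 (zones weighted equally, limma-trend) in endothelial-like cells; from 34 to 1 (DESeq2) in arterial-like cells; from 144 to 270 (no filter), 91 (DESeq2) and 73 (cluster 1 alone) in capillary-like cells; and from 221 to 64 (DESeq2) in venous-like cells. They moved from 0 to 9 in pericyte-like and 14 in smooth muscle-like cells without a filter. Without the library block the zone counts were 1831 and 1000, against 2816 and 2296. Pericyte-like cells with little endothelial RNA gave 3480, against 2186.

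Replicate numbers were only shared numbers (r = 0.179 over 6225 genes, 2 pairs). With them as a replicate block, genes called were 219 in capillary-like and 2 in pericyte-like cells, and no member's diet call changed.

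Leaving out 1 library at a time, members called ranged from 0 to 2 in endothelial-like and capillary-like cells, and from 0 to 1 in arterial-like, venous-like and smooth muscle-like cells and in the venous-like minus capillary-like diet term. Genes called ranged from 163 to 445 (endothelial-like), 7 to 62 (arterial-like), 116 to 499 (capillary-like), 109 to 263 (venous-like), 10 to 19 (pericyte-like) and 1 to 144 (smooth muscle-like). For the diet terms between zones they ranged from 23 to 46 (arterial-like) and 29 to 61 (venous-like). A diet left with 1 library is assumed to vary like the other.

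Log2 values that changed sign without a library, none of them called in the reported fit, ranged as follows. In endothelial-like cells Jag1 ranged from -0.20 to 0.16, Notch1 from -0.064 to 0.12, Notch4 from -0.040 to 0.12, Heyl from -0.21 to 1.15 and Nrarp from -0.29 to 0.14. In arterial-like cells Nrarp ranged from -0.31 to 0.036. In capillary-like cells Jag1 ranged from -0.20 to 0.22, Notch1 from -0.042 to 0.17 and Nrarp from -0.24 to 0.30. In venous-like cells Dll4 ranged from -0.20 to 0.026 and Jag1 from -0.51 to 0.030. In pericyte-like cells Dll4 ranged from -0.35 to 0.68, Notch1 from -0.11 to 0.37, Notch4 from -0.84 to 0.66, Hes1 from -0.058 to 0.20, Hey1 from -0.052 to 0.73, Heyl from -0.45 to 0.048, Nrarp from -0.033 to 0.63 and Efnb2 from -0.85 to 1.24. In smooth muscle-like cells Jag1 ranged from -0.26 to 0.14, Heyl from -0.72 to 0.31 and Nrarp from -0.44 to 0.16. Nrarp ranged from -0.073 to 0.12 in venous-like against capillary-like cells. In the arterial-like minus capillary-like diet term Dll4 ranged from -0.042 to 0.41, Notch1 from -0.059 to 0.10, Hey1 from -0.021 to 0.39, Nrarp from -0.60 to 0.24 and Efnb2 from -0.42 to 0.19.

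Other settings that turned a sign gave, in endothelial-like cells, Jag1 0.11, Notch1 -0.032 and Notch4 -0.093 with zones weighted equally, Notch1 -0.022 and Notch4 -0.0043 with library totals, and Jag1 0.0090 with a mitochondrial limit of 5% and 0.052 without cells with mural RNA. Capillary cluster 0 alone gave Jag1 -0.010 and Efnb2 0.11. In pericyte-like cells Notch4 was 0.0033 in DESeq2 and Notch1 -0.26 without cells with endothelial RNA. Without a filter, Hes1 was -0.0060 and Nrarp -0.0086 in venous-like against capillary-like cells. Fits on capillary clusters alone, limma-voom and those without the 17-cell cluster were chosen after seeing the data. Pericyte-like sums came from 32 to 107 cells per library and arterial-like sums from 71 to 276, which limits their depth.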

Other observations

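A cluster of 17 endothelial-like cells led by Apln, Pgf and Kit (4, 2, 4 and 7 cells per library) had 2, 1, 7 and 14 Dll4 UMIs, or 81.4 and 58.9 CPM in the control libraries and 240 and 213 CPM in the PLX5622 libraries. Hey1 had 0, 0, 0 and 2 UMIs in the same cells. These sums are too small for a test. Another 19 cells led by Plvap were found in the control libraries only (6 and 13 cells), and Efnb2 there was at 421 and 217 CPM from 10 and 22 UMIs.

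Astrocyte-like cells (98 in all) carried Nrarp at 135, 101, 105 and 79.7 CPM, from 8, 41, 5 and 17 UMIs, and Hes1 at 273 to 670 CPM. Dll4 had 0, 2, 0 and 1 UMI in them. Platelet-like clusters carried Dll4 at 40.6, 84.9, 135 and 148 CPM and erythroid-like clusters at 72.5, 46.4, 66.4 and 69.4 CPM. Jag2 was at 145, 170, 131 and 153 CPM in the platelet-like and at 99.7, 124, 100 and 68.7 CPM in the erythroid-like clusters. Endothelial RNA mixed into these droplets was not tested, so the values do not show which cell made the RNA.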
